A study of Saccharomyces cerevisiae with 8 samples.

Results

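The regions described here are the Pho92 peaks that lie on the small contigs of the SK1 budding yeast assembly. They were taken by contig number alone: every peak on contig 50 or higher (NCSL01000050.1 and up), without contig 92 (NCSL01000092.1), in any of 8 CRAC libraries. Touching peaks of 1 strand were joined over the 8 libraries, which gave 9670 regions of 105293 in all, on 56 contigs. Each region was given, per library, the total of the normalized scores of its peaks, with 0 standing for no listed peak.

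Pho92 is a YTH-domain protein, a family that binds N6-methyladenosine (m6A) in RNA. In budding yeast m6A is laid down during meiosis by a complex whose catalytic subunit is Ime4, and Pho92 is the known YTH reader of that mark. CRAC maps where a protein touches RNA: UV light links protein and RNA, the tagged protein is purified under denaturing conditions, and the attached RNA is sequenced. Signal in cells without the tag, or without UV, is background of the purification.

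All 8 libraries came from diploid meiotic SK1 cells whose IME1, the master regulator of meiotic entry, is driven by a copper-inducible promoter, and 2 biological replicates were made per group. The groups were an ime4 mutant with Pho92-HTP, Pho92-HTP alone, the same without irradiation, and wild type with no tag (HTP is the purification tag). Cells spent 5 h in sporulation medium, the last 3 h of them with 50 μM copper sulfate, and all groups but the one without UV were irradiated at 254 nm. Fission yeast cells with tagged Luc7 were added to each sample as a spike-in. The sample titles name the ime4 allele as a mutant, and the names of the deposited peak lists give it as ime4ko.

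The 4 irradiated tagged libraries held 41604 to 66344 peaks and the 4 controls 2138 to 2925. From the values, the deposited score is the squared summit height divided by the peak width, and heights are given below as read equivalents. Unlike the normalized scores, these heights carry no spike-in scaling. Because the height is squared, a log2 difference in score is 2 times that in height at equal width and scaling. Pho92-HTP replicate 2 was the thinnest of the irradiated tagged libraries, with a spike-in factor of 5.92. The lists name no genes, and their SK1 coordinates were not matched to an annotation here, so regions are named by contig, position and strand. The sources used here do not say how reads that fit several places were handled.

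Contigs 50 and up were the short end of the assembly. Their last listed coordinate lay between 765 and 66033 nt (median 9358), against 66024 to 569543 nt on contigs numbered below 50. At the border, contig 50 reached 66033 nt with 8 tested regions, 6 of them lower in the ime4 mutant (median log2 difference -6.26). Contig 49 reached 66024 nt with 6 tested regions, 5 of them lower (median -9.04).

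Weak peaks were spread over both kinds of contig alike. With contig 92 left out, small contigs held between 8.97% and 9.87% of the peaks of every library. Regions numbered 88.6 per 10 kb on small contigs and 93.8 per 10 kb on contigs below 50. Few were strong: 103 regions on 28 small contigs exceeded the authors' score threshold of 0.9 in at least 2 of the 4 irradiated tagged libraries and were tested. The other 28 small contigs, with 1310 regions, had none. Of the 103 tested regions, 40 were on the plus strand and 63 on the minus strand, and their median length was 59.0 nt.

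The strong small-contig sites fell into a group that was lower in the ime4 mutant and another of like size that was not called. In the mutant 52 of the 103 tested regions were lower, 4 were higher and 47 showed no call (limma, threshold of 0.05 on the p adjusted over all 947 tested regions). Among all 947 regions 62.1% were called lower and 0.739% higher. On contigs below 50 the counts were 536 lower and 2 higher of 797, or 67.3% lower, against 50.5% on small contigs. The median log2 difference, ime4 mutant minus Pho92-HTP, was -3.67 on small contigs (quartiles -9.44 and 0.09), -7.63 on contigs below 50 and -6.80 over all. A region could pass the threshold through Pho92-HTP alone and then had to be lower in the mutant. Without that filter 68 of 9670 small-contig regions were lower and 4 higher, against 0.752% and 0.0180% of all 105293 regions.

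The number called rested on having both Pho92-HTP libraries: 5 small-contig regions were called lower without Pho92-HTP replicate 1 and 5 without replicate 2, at median differences of -3.48 and -4.22. Few calls were left on contigs below 50 in those fits too, at medians of -7.81 and -7.73. When libraries were scaled by a trimmed mean of log ratios over the tested regions, 23 of the 103 (22.3%) were lower and 44 higher. On contigs below 50 that scaling gave 268 lower (33.6%) and 230 higher of 797. The median over all 947 regions moved from -6.80 to -1.46.

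**Figure D1:**
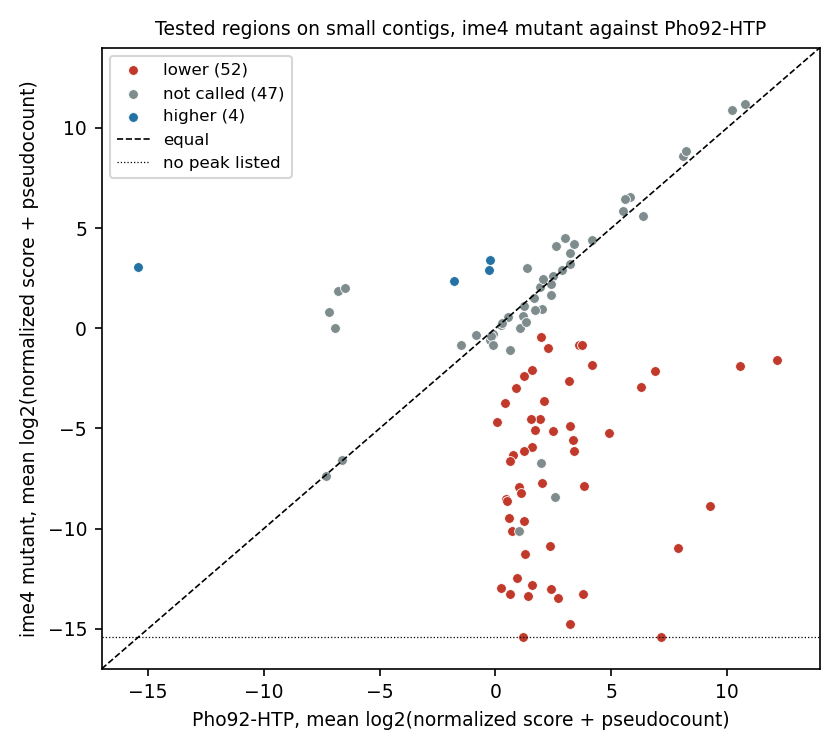
Each point is 1 of the 103 tested small-contig regions. The horizontal axis is the mean over 2 Pho92-HTP libraries and the vertical axis the mean over 2 ime4 mutant libraries of log2(normalized score + 2.28e-05). The 52 regions called lower fall below the dashed line of equality, while most of the 47 uncalled ones lie along it.

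The 52 lower regions ranged from partial to near complete loss of score in the mutant. Their median score was 0.0117 and 0.0136 in the ime4 mutant, against 4.70 and 3.35 in Pho92-HTP. In summit height this was a median of 16.7 and 23.4 read equivalents in the ime4 mutant and 464 and 156 in Pho92-HTP. The median fall among them was -9.16 on the log2 scale (quartiles -13.27 and -6.37, median SE 1.01), and for 2 of them neither mutant library listed a peak. The smallest fall was on contig 85 at 6479 to 6583 (plus strand), with 0.975 and 0.542 in the ime4 mutant, against 3.74 and 4.06 in Pho92-HTP (-2.42, SE 0.65, adjusted p = 0.0327, limma). They lay on 23 contigs. The 47 uncalled regions scored a median of 4.06 and 2.30 in the ime4 mutant and 3.34 and 3.56 in Pho92-HTP, and 40 of them had a log2 difference within 2.

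The strongest Pho92-HTP site on a small contig was lower in the mutant. On contig 66 at 24130 to 24200 (plus strand) the score was 0.330 and 0.344 in the ime4 mutant, against 4973 and 4232 in Pho92-HTP. Summits there were 89.9 and 118 read equivalents in the mutant and 14763 and 5687 in Pho92-HTP (log2 score difference -13.73, SE 0.46, adjusted p = 0.00142, limma). This site lay 270 nt from the last listed coordinate of its contig, and a weaker neighbour at 24344 to 24470 was lower too, at 0.333 and 0.0777 in the mutant and 13.8 and 5.77 in Pho92-HTP.

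Another 3 of the 8 strongest sites were lower in the mutant. Contig 55 at 18643 to 18727 (minus strand) scored 0.363 and 0.205 in the ime4 mutant and 644 and 3443 in Pho92-HTP (difference -12.41, SE 1.01, adjusted p = 0.00204, limma). Contig 50 at 4779 to 4855 (minus strand) scored 0.00109 and 0.00404 in the mutant, against 893 and 420 in Pho92-HTP. Contig 63 at 27624 to 27667 (minus strand) scored 0.0106 and 0 in the mutant, against 295 and 190 in Pho92-HTP. In all 3 both mutant libraries lay far below both Pho92-HTP libraries.

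The remaining 4 of the 8 strongest were not called between genotypes, and 3 of them shared contig 52. At 58918 to 58983 (plus strand) that contig scored 1694 and 2105 in the ime4 mutant and 346 and 4185 in Pho92-HTP, so the mutant values lay between the Pho92-HTP replicates (difference 0.65, SE 1.37, adjusted p = 0.744, limma). At 51541 to 51583 (minus strand) it scored 390 and 386 in the mutant and 117 and 651 in Pho92-HTP. At 60288 to 60348 (minus strand) it scored 658 and 329 in the mutant and 191 and 460 in Pho92-HTP. The 4th, on contig 54 at 27327 to 27358 (minus strand), scored 3045 and 1839 in the mutant and 998 and 3067 in Pho92-HTP. Groups overlapped at all 4 sites, and the SE of the log2 difference ran from 0.74 to 1.37.

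**Figure D2:**
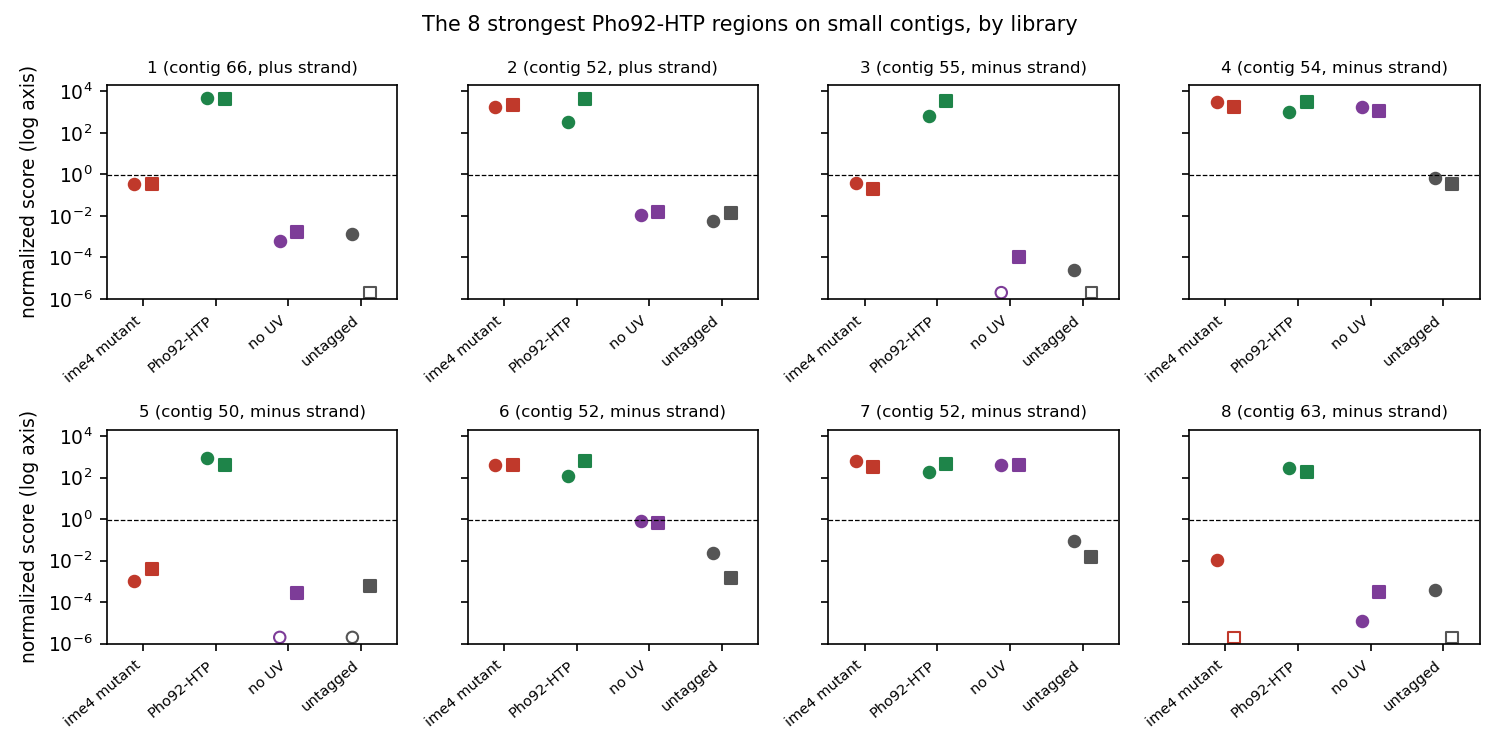
Normalized score (log axis) in each of the 8 libraries for the 8 small-contig regions that scored highest on average in Pho92-HTP, numbered in falling order. Circles are replicate 1 and squares replicate 2, open symbols at the bottom mark libraries with no listed peak, and the dashed line is 0.9. Regions 1, 3, 5 and 8 drop in the ime4 mutant, and the values of regions 4 and 7 without UV lie within the range of those in Pho92-HTP.

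The largest falls among sites above 0.9 in both Pho92-HTP libraries included weaker sites. Contig 87 at 2436 to 2478 (plus strand) had no listed peak in either ime4 mutant library, against scores of 244 and 83.6 in Pho92-HTP (difference -22.58, SE 1.05, adjusted p = 0.00142, limma). Mutant peaks within 50 nt of it scored 0.00714 and 0.00475. It was the single tested region on that contig. Contig 58 at 33582 to 33613 (plus strand) scored 0 and 3.48e-05 in the mutant and 10.6 and 8.34 in Pho92-HTP. Contig 60 held a pair of such sites: at 26422 to 26461 (plus strand) with 0.000420 and 0 in the mutant and 19.1 and 9.98 in Pho92-HTP, and at 2236 to 2269 (minus strand) with no listed mutant peak and 1.70 and 2.97 in Pho92-HTP. The last had no mutant peak within 50 nt either, and its difference of -16.59 was the same with peaks up to 50 nt apart merged. The other falls shrank with that merging. Contig 87 went from -22.58 to -13.40 and contig 58 from -17.99 to -8.53. The site at 26422 on contig 60 went from -17.07 to -6.07. Each of these sites stayed called lower (adjusted p at most 0.000192, limma).

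Contig 59 at 9295 to 9354 (minus strand) scored 0 and 0.000309 in the ime4 mutant, against 6.30 and 6.62 in Pho92-HTP. Contig 53 at 6113 to 6194 (minus strand) scored 0.000612 and 0 in the mutant, against 6.17 and 4.46 in Pho92-HTP. With peaks up to 50 nt apart merged, the falls on contigs 59 and 53 shrank from -16.18 and -15.41 to -8.01 and -6.67. Those named above on contigs 50 and 63 shrank from -18.13 and -18.88 to -11.41 and -10.97. Each of these sites stayed called lower (adjusted p at most 0.000138, limma). Fold changes that involve an unlisted peak depend on the pseudocount, and where both libraries of a group are at 0 that group adds no spread to the SE. With either Pho92-HTP library left out, the calls named here on contigs 50, 53, 59 and 63 and the one at 26422 on contig 60 were lost, at adjusted p from 0.0547 to 0.132 (limma), while their differences stayed between -19.19 and -15.18.

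The 4 regions called higher in the mutant lay on 3 contigs. On contig 58, the plus-strand regions at 443 to 506 and 595 to 657 were next to each other. The first scored 9.38 and 11.9 in the ime4 mutant and 0.362 and 1.96 in Pho92-HTP (difference 3.65, SE 1.02, adjusted p = 0.0376, limma). The second scored 5.73 and 4.67 in the mutant and 0.279 and 0.297 in Pho92-HTP (4.17, SE 0.61, adjusted p = 0.00568, limma). Contig 60 at 489 to 543 (minus strand) scored 7.23 and 7.99 in the mutant and 0.935 and 0.733 in Pho92-HTP (3.20, SE 0.56, adjusted p = 0.00948, limma). In each of these 3 both mutant libraries exceeded both Pho92-HTP libraries, and each lay within 1000 nt of a contig start.

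The last, contig 52 at 41431 to 41475 (minus strand), had no listed peak in Pho92-HTP and scored 17.0 and 4.17 in the mutant. Pho92-HTP peaks of 12.2 and 4.46 lay within 50 nt of it, and with peaks up to 50 nt apart merged the call was lost (difference 0.56, adjusted p = 0.588, limma). All 4 calls were lost without either Pho92-HTP library. The calls at 443 and 595 on contig 58 and at 489 on contig 60 were also lost when all regions were tested without the filter (adjusted p = 0.345, 0.133 and 0.274 in that order, limma), so the 4 regions called higher there are not the same 4. The call at 443 was lost as well without either ime4 mutant library, and that at 595 in a fit on all 8 libraries and with regions merged over the 4 irradiated tagged libraries.

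Calls were counted per contig, often over few regions. Of the 28 contigs with a tested region, 10 had all of them lower, 13 had some lower, and 5 had none lower. Of the 10, contigs 70, 73, 74 and 87 had 1 tested region each, and contigs 51, 65 and 85 had 2. Of the 5, contigs 80 and 96 had 1, and contigs 82 and 105 had 2. The uncalled contig 96 region scored 0 and 0.0345 in the mutant and 1.75 and 2.33 in Pho92-HTP (difference -11.15, SE 3.84, adjusted p = 0.0676, limma). Over all contigs 62.1% of tested regions were lower. Whether contigs differ from each other beyond that share was not tested. All 4 tested regions were lower on contig 63 (median difference -11.65), as were all 3 on contig 62 (median -8.09) and all 3 on contig 66 (median -12.53). On contig 61, by contrast, none of 4 was called in either direction (limma, also at an unadjusted p under 0.05), with a median of -0.10. The region at 9870 to 9923 (minus strand) had the widest difference there, with 0.000355 and 0.234 in the mutant and 5.42 and 2.85 in Pho92-HTP (-8.71, SE 3.38, adjusted p = 0.0930, limma). The contig's strongest region, at 25513 to 25565 (minus strand), scored 6.80 and 5.54 in the mutant and 3.06 and 10.3 in Pho92-HTP. Contig 56 had 1 of 5 lower, and its strongest site at 50776 to 50837 (minus strand) scored 16.5 and 10.9 in the mutant and 8.68 and 9.97 in Pho92-HTP.

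**Figure D3:**
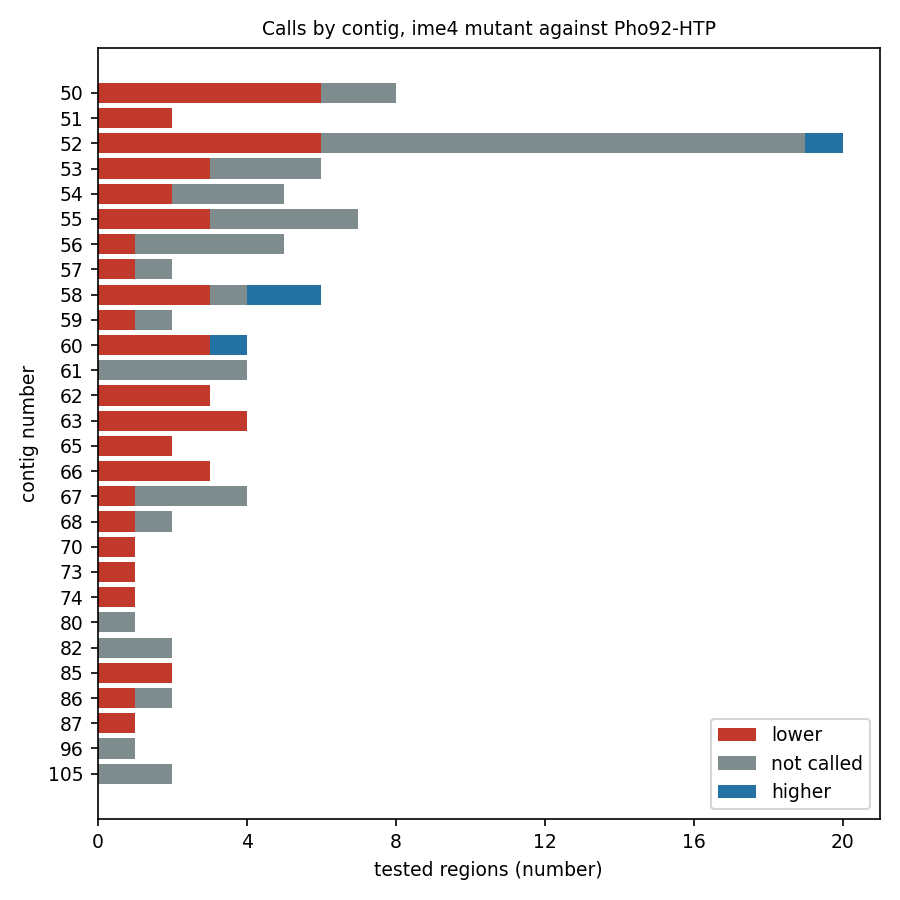
Number of tested regions per small contig (horizontal axis) by their call in the ime4 mutant against Pho92-HTP. Contig 52 has the most, with 6 lower, 13 not called and 1 higher, and 10 contigs, some with 1 tested region, are lower throughout.

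Contig 52 held 20 of the 103 tested regions, of which 6 were lower, 13 were not called and 1 was higher. Without it, 46 of 83 small-contig regions were lower (55.4%) and the median difference was -5.79. Neighbouring sites on this contig differed. From 30085 to 31433 on the minus strand a run of 6 tested regions, with gaps of at most 500 nt, held 3 that were lower. Its first region, at 30085 to 30172, scored 0.392 and 0.130 in the mutant and 72.2 and 191 in Pho92-HTP (difference -9.02, SE 0.90, adjusted p = 0.00254, limma). The region at 31118 to 31297 scored 1.47 and 0.445 in the mutant and 0.873 and 0.995 in Pho92-HTP and was not called.

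A second run on that contig, of 7 regions from 40904 to 41816 on the minus strand, held 1 lower and 1 higher region. Its summed score was 88.5 and 28.5 in the mutant and 45.0 and 30.5 in Pho92-HTP. Contig 55 showed the same mixture on the minus strand: the region at 16965 to 17052 was lower, at 0.646 and 0.478 in the mutant, against 13.0 and 11.7 in Pho92-HTP. Its neighbour at 17070 to 17121 scored 1.63 and 0.616 in the mutant and 1.94 and 2.24 in Pho92-HTP, without a call. Contig 53 at 892 to 939 (plus strand) scored 0.365 and 0 in the mutant and 6.97 and 5.03 in Pho92-HTP and was not called (adjusted p = 0.137, limma), but was called lower without either ime4 mutant library. Contig 62 at 13523 to 13562 (minus strand) was lower, at 0.00666 and 0.00274 in the mutant and 12.1 and 16.6 in Pho92-HTP, a call that needed both Pho92-HTP replicates (adjusted p = 0.0614 without replicate 1 and 0.0604 without replicate 2, limma), whereas contig 67 at 22759 to 22810 (plus strand) scored 1.54 and 2.30 in the mutant and 4.70 and 2.26 in Pho92-HTP and was not called.

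Calls differed in number between contig ends and interiors, a split that was chosen after the values were seen. Of 25 tested small-contig regions within 1000 nt of a contig end (its start, or its last listed coordinate), 7 were lower, 3 higher and 15 not called, with a median difference of 0.05. Their differences ran from -14.36 to 8.49, and 11 of the 25 lay within 2. Farther in, 45 of 78 were lower (57.7%) and 1 was higher, with a median of -5.23. Contigs below 50 showed the same split, with 2 of 21 lower near an end and 534 of 776 (68.8%) farther in. Near the ends of small contigs the median score without UV was 0.000107 and 0.000198, against 9.46e-06 and 0 farther in, and the part of this background in the split was not tested.

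Among the sites near an end, contig 105 at 15 to 76 (plus strand) scored 63.8 and 51.7 in the mutant and 28.2 and 74.6 in Pho92-HTP. Contig 52 at 68 to 107 (plus strand) scored 203 and 44.2 in the mutant and 22.7 and 141 in Pho92-HTP. Contig 80 at 446 to 490 (plus strand) scored 178 and 43.4 in the mutant and 19.3 and 120 in Pho92-HTP. The last pair had nearly the same values in each of these 4 libraries. Whether they share sequence was not tested.

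**Figure D4:**
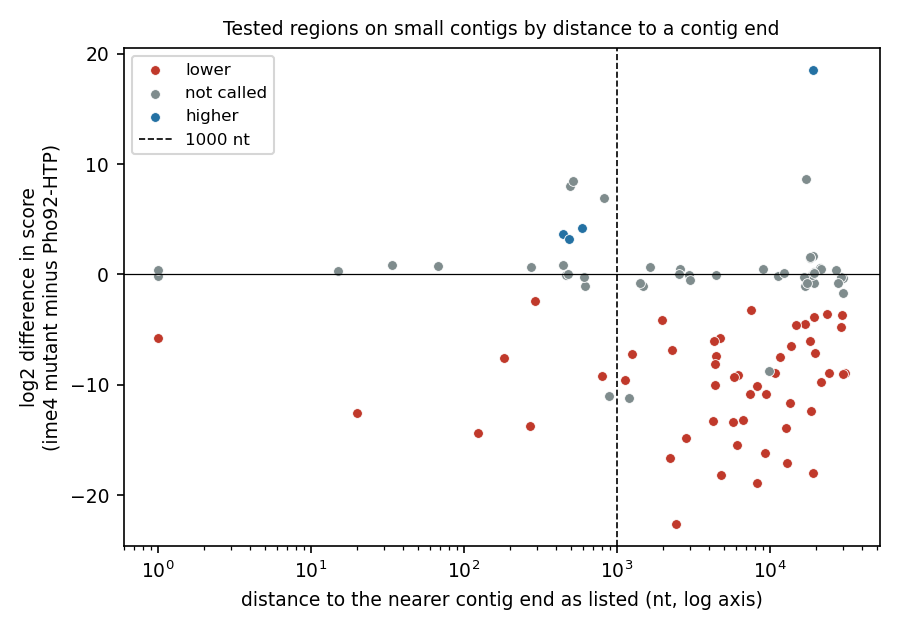
Log2 score difference (ime4 mutant minus Pho92-HTP) of the 103 tested small-contig regions against the distance to the nearer contig end in nt (log axis, a distance of 0 drawn at 1). Left of the dashed line at 1000 nt the 25 regions spread from -14.36 to 8.49 around a median of 0.05, and to its right lie 45 of the 52 regions called lower.

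Strong peaks were fewer in the mutant on both kinds of contig, and small contigs made up a larger share of those left. Small contigs held 43 and 42 peaks above 0.9 in the ime4 mutant and 112 and 109 in Pho92-HTP, so the mutant held 38.5% of the Pho92-HTP mean (37.5% to 39.4% over the 4 pairs of libraries). Contigs below 50 held 245 and 240 such peaks in the mutant and 900 and 946 in Pho92-HTP, which is 26.3% (25.4% to 27.2%). As a share of peaks above 0.9 outside contig 92, small contigs made up 14.9% ± 0.0261 in the mutant and 10.7% ± 0.520 in Pho92-HTP (SD, n = 2 each). The difference of 4.21 percentage points exceeded the spread between replicates, and an exact two-sided permutation test gave p = 0.33, the smallest that 2 against 2 libraries allow. Without contig 52 it was 1.87 percentage points. Pho92-HTP libraries had 11.1% and 10.3% of their strong peaks on small contigs, against 11.1% and 8.33% without UV. The shares without UV rested on only 3 and 2 small-contig peaks, beside 24 and 22 on contigs below 50. The difference of 0.98 percentage points was within the spread of the libraries (exact two-sided permutation p = 1.00).

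The summed score went the other way. Small contigs held 0.743% and 1.22% of it in the ime4 mutant and 2.95% and 2.45% in Pho92-HTP (exact two-sided permutation p = 0.33). That measure rests on few peaks: on contigs below 50 the top peak alone made up 61.2% and 64.3% in the mutant and 44.2% and 59.3% in Pho92-HTP. On small contigs the top peak made up 46.0% and 41.7% in the mutant and 51.9% and 23.6% in Pho92-HTP. In Pho92-HTP that peak was the contig 66 site at 24130, which was lower in the mutant. On small contigs the peaks covered 135361 and 174095 nt in the mutant and 190225 and 120656 nt in Pho92-HTP, at a mean score of 1.56 and 0.923 in the mutant and 1.61 and 4.73 in Pho92-HTP.

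**Figure D5:**
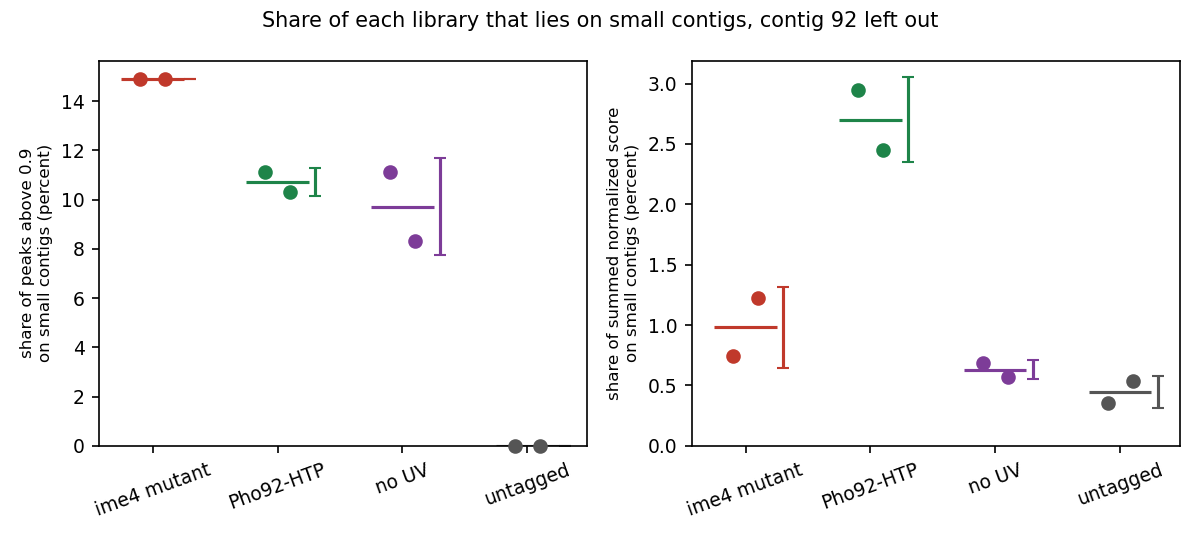
Share of each library that lies on small contigs (percent, contig 92 left out), for peaks above 0.9 (left) and summed normalized score (right). Points are libraries, lines are group means and bars the SD (n = 2). The mutant is above Pho92-HTP on the left, at 14.9% and 10.7%, and below it on the right.

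Background without the tag was low in score on small contigs, but was listed at a larger share of their tested regions. At least 1 untagged library listed a peak at 62.1% of the 103 tested regions, against 50.1% of 797 on contigs below 50. No untagged peak on small contigs exceeded 0.9, out of 7 and 2 such peaks outside contig 92, numbers too small to tell what share lies on small contigs. Scores on small contigs summed to 9577 and 17924 in Pho92-HTP, against 1.01 and 0.629 in untagged cells. By limma on all 8 libraries Pho92-HTP was higher at 95 of the 103 regions and lower at 0, and again at 0 at an unadjusted p under 0.05. The share higher was 92.2% on small contigs, 98.2% of 797 on contigs below 50 and 96.4% of all 951 tested regions. The filter lets in mostly regions that are high in tagged cells, so these shares had to be high. Without it 1533 of 9670 small-contig regions were higher and 0 lower, against 16.9% higher and 0.00285% lower over all contigs. Of the 8 not called, 7 lacked a listed peak in at least 1 Pho92-HTP library.

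The highest untagged score on a small contig was 0.633 and 0.331, on contig 54 at 27327 to 27358, where Pho92-HTP scored 998 and 3067 (difference 11.90, SE 0.79, adjusted p = 1.67e-05, limma). Next came contig 56 at 21426 to 21525 (minus strand), with 1.02 and 0.126 in Pho92-HTP and 0 and 0.169 in untagged cells, where Pho92-HTP was not called higher (adjusted p = 0.109, limma). Pho92-HTP scores of 191 and 460 on contig 52 at 60288 to 60348 stood against 0.0870 and 0.0152 in untagged cells. A pair of untested minus-strand regions had an untagged peak in 1 library only. On contig 50 at 20267 to 20309 scores were 0.205 and 0.0742 in Pho92-HTP and 0.0584 and 0 in untagged cells, and on contig 57 at 50121 to 50162 they were 0.000184 and 0.133 in Pho92-HTP and 0.0503 and 0 in untagged cells.

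At 3 sites with a peak in both Pho92-HTP libraries, the score with UV was not called above that without. By limma UV-treated Pho92-HTP cells were above cells without UV at 93 of the 103 regions and below them at 0. At an unadjusted p under 0.05 the number below was again 0. The share above was 90.3%, against 95.1% of 797 on contigs below 50. Of all 951, 93.6% were higher and 0.105% lower. At least 1 library without UV listed a peak at 62.1% of the 103, against 56.5% on contigs below 50. The same filter applies; without it 1539 of 9670 were higher and 1 lower, against 17.0% higher and 0.00285% lower over all contigs. Of the 10 not called, 7 lacked a listed peak in a Pho92-HTP library. The other 3 had a peak above 0.9 in at least 1 library without UV. On contig 54 at 27327 to 27358 scores were 998 and 3067 in Pho92-HTP with UV and 1836 and 1153 without (difference 0.27, SE 0.79, adjusted p = 0.757, limma). On contig 52 at 60288 to 60348 they were 191 and 460 with UV and 384 and 412 without (-0.42, SE 1.04, adjusted p = 0.711, limma). On contig 54 at 18419 to 18452 (minus strand) they were 4.22 and 8.78 with UV and 1.46 and 0.606 without (2.69, SE 1.11, adjusted p = 0.0557, limma).

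None of these 3 was called between genotypes either. The first of them held 82.6% and 73.6% of the small-contig score without UV. Other sites with some signal without UV scored far higher with it. Contig 52 at 51541 to 51583 scored 117 and 651 with UV and 0.804 and 0.615 without. Its scores without UV were near the 1.46 and 0.606 on contig 54 at 18419. At 32731 to 32778 (minus strand) contig 52 scored 110 and 63.2 with UV and 0.0223 and 0.0465 without. Both of these contig 52 sites were called higher with UV, at differences of 8.61 and 11.34 (adjusted p = 0.00160 and 0.000131, limma). The site at 32731 was not called between genotypes, with 61.7 and 38.6 in the ime4 mutant and 110 and 63.2 in Pho92-HTP, and its difference of -0.78 was 0.11 without spike-in scaling.

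All 52 regions that were lower in the mutant were above both controls in Pho92-HTP, and so were 37 of the 47 not called between genotypes. Among all 951 tested regions Pho92-HTP was above untagged cells at 96.4% and above cells without UV at 93.6%. The same Pho92-HTP libraries enter all of these comparisons, and regions called lower were selected for high Pho92-HTP scores. Of the 47 not called, 6 had no listed peak in 1 of the Pho92-HTP libraries. The contrast between the 52 and the 47 is thus partly set by that selection. In the ime4 mutant 83 of 103 tested regions (80.6%) were higher than in untagged cells and 0 lower (limma, 0 also at an unadjusted p under 0.05), against 80.1% higher and 0.105% lower of all 951 tested, so the share was near that of all tested regions. Without the filter 1027 of 9670 were higher and 0 lower, against 10.7% and 0.00190% over all contigs. That held for 37 of the 52 regions lower in the mutant than in Pho92-HTP and for 42 of the 47 not called. The count of 83 was 41 with a pseudocount of 0.9, 44 with trimmed-mean scaling and 51 with library-total scaling.

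The 9567 untested small-contig regions carried weak signal. Of these 2273 had a peak in both ime4 mutant libraries, 2355 in both Pho92-HTP libraries, 28 in both without UV and 21 in both untagged libraries. A single library listed 4699 of them (49.1%), close to the 47.3% on contigs below 50. In the 1184 regions listed in all 4 irradiated tagged libraries, the median log2 difference between the mutant and Pho92-HTP was -0.95 (quartiles -2.99 and 0.70), and it was -1.11 in 12483 such regions on contigs below 50.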

How the data were processed

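CRAC peak lists of 8 libraries were analysed. The authors deposited 1 list per library, with a score per peak (h2w score, per the file headers) and, except for Pho92-HTP replicate 1, a normalized score. The deposited normalization table gives counts of peaks per library and a spike-in factor, a ratio that sets Pho92-HTP replicate 1 to 1, per the file headers. cutadapt and Bowtie2 2.4.1 are named in the submitters' processing notes, while no source used here names the peak caller or how coordinates are counted. Positions are printed as deposited. The control sheets were scaled by the factors that the table lists for the other control (0.428 and 0.746 without UV, 1.13 and 0.771 untagged). Values were kept as scaled in each sheet, and the table's factors were tried as an alternative. Read equivalents assume a Gaussian kernel with an SD of 15 nt: heights of 32-nt peaks then came within 0.01 of whole reads in 63.3% to 92.4% of cases, depending on the library. Total reads are unknown, and scores carry no counting error.

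Touching same-strand peaks were merged. Regions above 0.9 in at least 2 libraries of a fit were tested with limma 3.58.1 (R 4.3.3, mean-variance trend) on log2(normalized score + 2.28e-05). The added constant is percentile 5 of the normalized scores. Since the unit is a score, no count model was used. The replicates are biological per the series text. Replicate numbers showed no pairing in the scores: correlations of the replicate differences between groups ran from -0.0600 to 0.0527 over 951 regions. Such correlations do not register a shift shared by all regions. The sample labels do not say whether libraries of the same number were processed together. The ime4 mutant was compared with Pho92-HTP on those 4 libraries, and controls on all 8. Adjusted p is Benjamini-Hochberg over all tested regions of all contigs. Library shares were compared by exact permutation in scipy 1.17.1. The fits were also run on simulated Gaussian values with a single SD per region. Those values had no unlisted peaks and no unequal spread between groups, so they cannot check the fits for these features. Tables and figures were made in Python 3.11.15 with pandas 2.3.3, numpy 2.4.6 and matplotlib 3.10.9.

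The members and tests were chosen with earlier results of these data known. Named regions were, on small contigs: the 8 largest falls among regions called lower and above 0.9 in both Pho92-HTP libraries, up to 5 called higher, the 8 strongest in Pho92-HTP, the 5 strongest in each control, and the strongest of each contig with 3 or more tested regions. Others named were chosen after their values were seen.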

Additional observations from a re-analysis of the deposited data

How the results depend on the processing

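For the ime4 mutant against Pho92-HTP, 52 lower regions of 103 became 30 of 65 with a score threshold of 2, which leaves fewer regions to test, and 23 of 103 with trimmed-mean scaling. The 4 higher ones became 8 without spike-in scaling, 44 with trimmed-mean scaling, 2 with peaks within 50 nt merged and 1 without regions within 1000 nt of a contig end (chosen after seeing the data). The median of -3.67 was -5.79 without contig 52, -1.32 with a pseudocount of 0.9, -0.46 with no filter, -1.04 with the threshold of 2, -2.79 without spike-in scaling and -5.23 without contig ends. It reversed to 1.67 with trimmed-mean scaling, which by its construction removes the typical fall. That scaling also reversed contig 52 at 32731 (4.57) and contig 67 at 22759 (4.55). Leaving out 1 library gave 5 to 56 lower, 0 to 3 higher and medians from -4.47 to -3.06. The fit with replicate number as a block gave 50 lower, 4 higher and a median of -3.67. That fit changed no call of a named region, and the scores showed no pairing by replicate number.

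Against untagged cells, 95 higher of 103 became 1533 of 9670 with no filter, 61 of 65 at the threshold of 2 and 40 of 103 with trimmed-mean scaling (93 to 97 leaving out 1 library). The 0 lower became 1 without spike-in scaling, 3 with trimmed-mean and 1 with library-total scaling (0 to 1). The median of 15.86 was 8.28 and 2.22 with pseudocounts of 0.01 and 0.9, 1.86 with no filter, 14.60 without spike-in, 5.15 with trimmed-mean and 10.35 with library-total scaling (15.68 to 16.34). Against no UV, 93 higher of 103 became 1539 of 9670 with no filter, 58 of 65 at the threshold of 2 and 38 of 103 with trimmed-mean scaling (92 to 96). The 0 lower became 1 with no filter, 1 without spike-in, 5 with trimmed-mean and 2 with library-total scaling (0 to 2). The median of 15.74 was 8.17 and 2.13 with the pseudocounts, 1.86 with no filter, 16.28 at the threshold of 2, 14.22 without spike-in, 4.87 with trimmed-mean, 12.83 with library-total scaling and 14.73 with 50 nt merging (15.68 to 16.03).

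For the ime4 mutant against untagged, 83 higher of 103 became 41 with the pseudocount of 0.9, 1027 of 9670 with no filter, 55 of 65 at the threshold of 2, 44 with trimmed-mean and 51 with library-total scaling (76 to 83, and 0 to 1 lower). The median of 10.89 was 9.97 without contig 52, 4.82 and 0.61 with the pseudocounts, 1.64 with no filter, 12.51 at the threshold of 2, 5.25 with trimmed-mean and 5.17 with library-total scaling (10.34 to 12).

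The small-contig share of strong peaks, mutant minus Pho92-HTP (4.21 percentage points), was 5.52 without spike-in scaling, 2.48 with contig 92 counted and 1.87 without contig 52 (3.84 to 4.58). Pho92-HTP minus untagged (10.70) was 9.91 without spike-in scaling, 9.84 at the threshold of 2 and 8.98 without contig 52 (10.33 to 11.07), and Pho92-HTP minus no UV (0.98) was -0.84 without spike-in scaling and 5.56 with contig 92 counted (-0.41 to 2.37). For the summed score the same 3 differences were -1.72, 2.25 and 2.07 percentage points, counting contig 92 gave -0.45, 0.79 and 0.19, and leaving out contig 52 gave 1.77 and 1.68 for the last pair. Their ranges without 1 library were -1.97 to -1.47, 2.00 to 2.50 and 1.82 to 2.32. The cause of these shifts was not tested. Of 388 values for 26 named regions under alternatives, 28 lost the call, 14 gained it and 2 gained it in the opposite direction. The sign differed from the reported one in 11 of the 388, over 7 regions, none of them called as reported.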
